A study of Equus caballus with 19 samples.

Results

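FCER2 encodes CD23, the low-affinity receptor for IgE, a membrane protein of the C-type lectin family. It sits mainly on B cells, where it takes part in the feedback that limits IgE production and in the uptake of antigen bound to IgE, and it can be shed from the cell as a soluble form. Interleukin 4, together with signals through CD40, is the classic inducer of CD23 on B cells, and other blood cells such as monocytes and eosinophils can carry it as well. The high-affinity receptor for IgE, of which FCER1A encodes the IgE-binding chain, is instead the receptor of mast cells and basophils.

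The level of this gene was read in whole venous blood of 19 prepubertal Welsh foals, about 10 months old at the start, after 12 weeks of 1 of 2 ways of keeping. The 9 control horses (6 males and 3 females), labelled imp, were kept singly, indoors but for short turns in a dirt paddock, within sight and hearing of each other but without touch. The 10 EE-treated horses (4 males and 6 females), labelled enr for environmental enrichment, formed a herd with an adult mare when out grazing, and came in by day to roomier boxes where the ration was flavoured and hidden. Brushes to scratch on stayed in place throughout, while unfamiliar items, scented bottles and broadcast music were changed or repeated over the weeks. The animals were also led to unknown places. Human presence and the energy of the ration were matched between the groups. The treatment changed housing, company, kind of feed and stimulation together, so the parts of it cannot be told apart. Each horse gave 1 sample and 1 single-colour array, so that a replicate is an animal.

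FCER2 is 1 of 799 genes that were named here through RefSeq accessions, and the fuller annotation the study made of its arrays is not used here. Of the 43384 different probes, which are short DNA pieces that bind 1 transcript, 6 carried the transcript accession of FCER2, and all of them are described. The gene was chosen for its difference between the groups in the same arrays, so that difference and the agreement of the probes on it are given as descriptions, and no test on this contrast is read as a result for FCER2. On each array the signals were scaled so that their 75th percentile was 500, and values are given as log2, so that a difference of 1 is a doubling of the scaled signal. The probes A_69_P001551, A_69_P001552, A_69_P001553, A_69_P001554 and A_69_P001555 were well above background on all 19 arrays. The probe A_69_P003146 was well above background on 0 of 19 arrays, with log2 values from 0.43 to 2.45, and no fold is given for it. The FCER2 level of a horse is therefore the mean of the 5 detected probes. Per array, 61.2% to 69.6% of all spots were well above background, and 0 were saturated.

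In control horses the FCER2 level was 7.71 ± 0.46 (SD, n = 9) on the log2 scale. The lowest was 6.92 in horse471, the median was 7.93 and the highest was 8.27 in horse472. In EE-treated horses it was 8.75 ± 0.52 (SD, n = 10), with the lowest at 7.87 in horse643, the median at 8.84 and the highest at 9.44 in horse648. The groups overlapped: 8 of the 10 EE-treated horses lay above the highest control horse, and 4 of the 9 control horses lay below the lowest EE-treated horse. The level of all 10 EE-treated horses exceeded the control mean, and that of all 9 control horses was under the EE mean. Among the 90 pairs of a control and an EE-treated horse, the EE-treated horse was the higher in 84.

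The group means differed by 1.04 on the log2 scale (standard error 0.23), or 2.06-fold, with the higher level in EE-treated horses. On the linear scale the scaled signals ran from 121 to 309 in control horses and from 234 to 692 in EE-treated horses. From the lowest to the highest horse the level varied 5.72-fold. In whole blood, more cells that carry a transcript and more transcript per cell cannot be told apart.

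**Figure D1:**
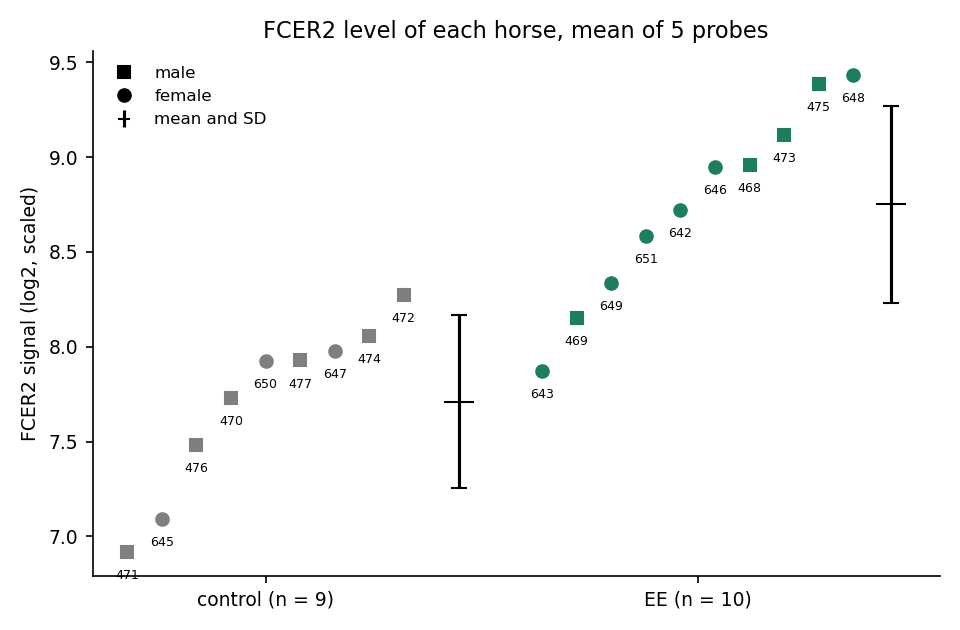
FCER2 level of each horse on the log2 scale (vertical axis, mean of 5 probes), with squares for males, circles for females and horse numbers below the points, and group mean and SD as bars. Horses are ordered by level within each group. The control horses lie between 6.92 and 8.27 and the EE-treated horses between 7.87 and 9.44, with the 2 lowest EE-treated horses inside the control range.

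The control horses in rising order were horse471 at 6.92, horse645 at 7.09, horse476 at 7.48, horse470 at 7.73, horse650 and horse477 at 7.93, horse647 at 7.98, horse474 at 8.06 and horse472 at 8.27. Of the control horses, horse471 and horse645 stood lowest and the other 7 lay between 7.48 and 8.27. The EE-treated horses in rising order were horse643 at 7.87, horse469 at 8.15, horse649 at 8.34, horse651 at 8.58, horse642 at 8.72, horse646 at 8.95, horse468 at 8.96, horse473 at 9.12, horse475 at 9.39 and horse648 at 9.44. Only horse643 and horse469 among the EE-treated horses lay inside the range of the control group. Leaving out each horse in turn kept the difference between 0.94 (without control horse471) and 1.14 (without EE-treated horse643).

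Each of the 5 detected probes gave the higher mean in EE-treated horses. The log2 difference was 0.94 (standard error 0.25) for A_69_P001551, 1.01 (0.23) for A_69_P001552, 1.10 (0.22) for A_69_P001553, 1.08 (0.23) for A_69_P001554 and 1.08 (0.23) for A_69_P001555. As a description only, these 5 probes lay past the threshold of the study in limma, an unadjusted p under 0.005 and a ratio of at least 1.2, which 1.18% of all probes did in that direction. Because the probes were chosen on this contrast, nothing is read from that count. After Benjamini-Hochberg adjustment over all probes, limma left 0 of the 43384 probes at an adjusted p under 0.05, while 5068 (11.7%) had an unadjusted p under 0.05.

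The detected probes rose and fell together across horses, more closely in EE-treated than in control horses. Across EE-treated horses, the Pearson correlation of 2 probes lay between 0.98 and 0.99 over the 10 pairs of probes, and across control horses it lay between 0.80 and 0.98. These correlations are over 10 and 9 horses, and the probes share the array and the transcript. In control horses the 4 pairs with A_69_P001551 reached at most 0.84, and without that probe the 6 remaining pairs lay between 0.95 and 0.98. The SD of the 5 probes within 1 horse had a median of 0.11 and ran from 0.059 to 0.50. The residual SD of a probe in a horse, after the means of probe and horse were taken out, was 0.12, against 0.49 for the spread between horses of a group. It was 0.070 without horse647.

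That horse stood apart on 1 probe. In control horse647, A_69_P001551 read 8.86 while the other 4 probes read between 7.70 and 7.86, so that it lay 1.10 above their mean. In the other 18 horses the same probe lay 0.063 to 0.22 above the mean of the other 4. The scanner software had marked none of the FCER2 spots as outliers. Without horse647, the control mean of A_69_P001551 was 7.79 ± 0.48 (SD) and its difference between the groups was 1.06, close to the other probes. With only that spot left out, the FCER2 level of horse647 was 7.76 rather than 7.98, and the difference of the level was 1.07.

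**Figure D2:**
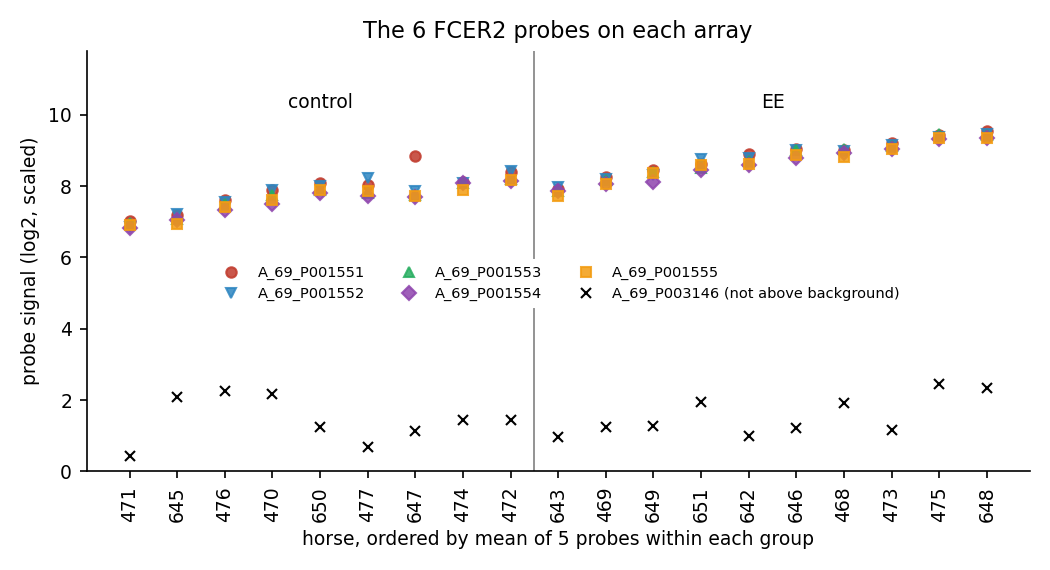
Signal of the 6 FCER2 probes (vertical axis, log2 of the scaled signal) on each of the 19 arrays, control horses on the left and EE-treated horses on the right, each ordered by the mean of the 5 detected probes. The 5 detected probes lie together in every horse but control horse647, where A_69_P001551 reads 8.86, and the crosses of A_69_P003146 stay at or below 2.45.

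The arrays lay on 5 slides, each with horses of both groups, and the EE-treated horses had the higher mean on each slide. On slide 1 the mean was 7.70 in the 2 control horses and 9.19 in the 2 EE-treated horses, a difference of 1.49. On slide 2 the means were 7.95 and 8.84, and on slide 4 they were 7.68 and 8.85, differences of 0.89 and 1.17. Slide 3 gave the smallest difference, 0.21, from 7.89 in control horses to 8.10 in EE-treated horses. There control horse474 (8.06) lay above EE-treated horse643 (7.87), and on no other slide did the groups overlap. Slide 5, which was scanned later than the others, held 1 control horse, horse471, at 6.92, and 2 EE-treated horses with a mean of 8.77, a difference of 1.85. With the slide as a block the difference was 1.07, and over the 16 arrays of the earlier scan it was 0.94. On the slides, positions 2 and 4 held control horses and positions 1 and 3 EE-treated horses, except EE-treated horse475 at position 2, so that position and treatment can hardly be told apart. The level of horse475 was 9.39.

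**Figure D3:**
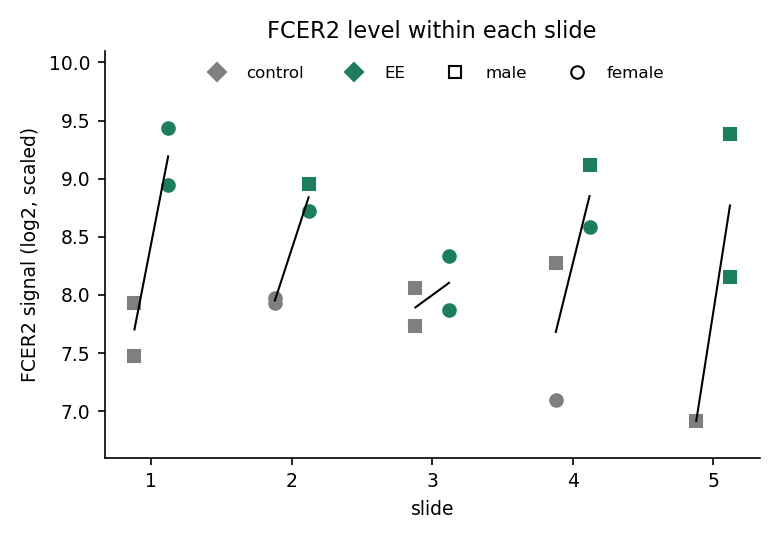
FCER2 level of each horse on the log2 scale (vertical axis) by slide (horizontal axis), grey for control and green for EE-treated horses, squares for males and circles for females, with a line joining the 2 group means of each slide. The mean of the EE-treated horses is higher on all 5 slides, by 0.21 on slide 3 and by 1.85 on slide 5, which has 1 control horse.

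Sex had no part in the choice of the gene and could be tested. Female control horses had an FCER2 level of 7.67 ± 0.50 (SD, n = 3) and male control horses 7.73 ± 0.48 (SD, n = 6). Among EE-treated horses, females had 8.65 ± 0.53 (SD, n = 6) and males 8.90 ± 0.53 (SD, n = 4). With the treatment group in the fit, females minus males came to -0.17 (standard error 0.23, 95% interval -0.64 to 0.31), with an adjusted p of 0.871 in limma. An exact permutation test of the sex labels within the groups, two-sided over 17640 relabellings, gave p = 0.506 for a mean difference of -0.16. In the same fit 0.0542% of all genes and unnamed probes had an adjusted p under 0.05 for sex, and 5.93% an unadjusted p under 0.05.

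The difference between EE-treated and control horses was 0.98 among females and 1.17 among males. The difference of these differences, the interaction of sex and treatment, was -0.19 (standard error 0.47, 95% interval -1.17 to 0.79), with an adjusted p of 0.983 in limma. In that fit 0 genes or unnamed probes had an adjusted p under 0.05, and 3.07% had an unadjusted p under 0.05. The interval of the interaction is wider than the treatment difference itself, so these numbers of horses do not show that the sexes were alike.

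The other genes around CD23 were taken from 14 lists of IgE binding, type 2 cytokines, B cells, the Notch2 pathway, Fc receptors, C-type lectins and markers of blood cell types. Of 205 genes on these lists besides FCER2, 33 had a RefSeq accession that gave a name, and 23 of them were above background, that is on all arrays of at least 1 group. In EE-treated horses the mean of 18 of these 23 was higher and that of 5 was lower, and their median log2 difference was 0.18. With all probes of each gene averaged, 17 of the 23 were higher. Over all 25219 genes and unnamed probes above background, 50.7% were higher and the median difference was 0.0039. That larger set is mostly unnamed probes and no set test was run, so nothing is read from the 18 of 23. An unadjusted p under 0.05 in limma was reached by 1 of the 23, against 8.6% in the higher and 6.16% in the lower direction over all. None of the 23 passed the threshold of the study, which 2.51% of those 25219 did, and 0 had an adjusted p under 0.05.

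Among the partners in IgE binding, FCER1A, the IgE-binding chain of the high-affinity receptor, had a mean of 10.31 ± 0.68 (SD, n = 9) under control keeping and of 10.82 ± 0.69 (SD, n = 10) under enrichment. The control horses ran from 9.29 to 11.60 with a median of 10.22, and the EE-treated horses from 9.60 to 11.70 with a median of 10.72. Only 1 EE-treated horse lay above the highest control horse. The log2 difference was 0.51 (standard error 0.30, adjusted p = 0.504 in limma). With sex as a covariate it was 0.73, with an unadjusted p of 0.00892 and an adjusted p of 0.313 in limma. With each horse left out it ran from 0.38 (without control horse647) to 0.67 (without control horse472). On the arrays of the earlier scan it was 0.39. ITGAX, which encodes CD11c, a chain of an integrin that binds CD23, differed by 0.18 (standard error 0.24, adjusted p = 0.739 in limma), and by -0.064 on the arrays of the earlier scan alone. It was 0.055 without EE-treated horse469, 0.067 without control horse647 and 0.28 without EE-treated horse648. With sex as a covariate it was 0.30, with the brightest of its probes 0.33 and with normexp 0.11.

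FCAR, the receptor for IgA, read 9.19 ± 0.39 (SD, n = 9) in control and 9.46 ± 0.52 (SD, n = 10) in EE-treated horses, and the difference was 0.26 (standard error 0.21, adjusted p = 0.580 in limma). The ranges, 8.52 to 9.79 and 8.88 to 10.60, overlapped over most of their length. The difference was 0.14 without EE-treated horse469 and 0.13 on the arrays of the earlier scan.

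Of 26 genes of the type 2 cytokine pathway, 10 could be named and 4 were above background. IL4R, which encodes the receptor chain for interleukins 4 and 13, differed by 0.18 (standard error 0.12, adjusted p = 0.541 in limma), from 13.98 in control to 14.16 in EE-treated horses. It was 0.12 without control horse471 and also without EE-treated horse469, and 0.059 on the arrays of the earlier scan. With quantile normalization it was 0.11, alone or after normexp background correction. CD40, the receptor for the T cell signal that acts with interleukin 4, differed by 0.13 (standard error 0.085, adjusted p = 0.536 in limma). IL13, a cytokine closely related to interleukin 4, differed by 0.26, from 3.68 in control to 3.95 in EE-treated horses. Without control horse477 it differed by 0.16, and with normexp by 0.041. IL10, which damps immune responses, differed by 0.078 over its 1 detected probe and by -0.083 over all 5 of its probes, and by 0.017 (without EE-treated horse473) to 0.15 (without EE-treated horse642) with each horse left out. The adjusted p of IL13 and IL10 was 0.584 and 0.854 in limma, and none of these 4 genes rose or fell by the test. IL4 itself, with 17 probes, was not well above background on all arrays of either group, nor were IL5, IL9 and TSLP.

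Of the 43 B cell genes only CD74 could be named here, the invariant chain of the MHC class II complex, which B cells share with monocytes and other antigen-presenting cells. Its difference was 0.073 (standard error 0.11, adjusted p = 0.783 in limma). It was -0.0068 with quantile normalization and -0.028 with normexp background correction followed by quantile normalization. With each horse left out it ran from 0.032 (without EE-treated horse646) to 0.13 (without control horse476). The markers that define B cells, such as MS4A1 and CD79A, were not named through the accessions used here, so the share of B cells in the blood was not tested. HEY1, a target of Notch signalling, a pathway that acts on the CD23 gene in B cells, was the 1 gene of 12 on the Notch2 list that could be named, and it differed by 0.23 (standard error 0.19, adjusted p = 0.587 in limma).

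Markers of the other blood cells were sparse. For eosinophils 0 of 11 markers could be named. For basophils and mast cells it was 2 of 10, FCER1A above background and KIT not. For platelets it was 1 of 6, above background. For monocytes, neutrophils, NK cells and T cells, 2 of 9, 2 of 11, 2 of 7 and 3 of 13 were named and above background, and for erythroid cells 2 of 9 were. The median log2 difference was 0.51 for the basophil and mast cell list, which is FCER1A alone. For the monocyte, neutrophil, NK cell, T cell, platelet and erythroid lists it lay between 0.057 in NK cell markers and 0.18 in monocyte markers. These medians rest on 1 to 3 genes a list. Genes higher and lower in EE-treated horses numbered 1 and 1 for neutrophils, NK cells and erythroid cells, and 2 and 1 for T cells. They numbered 2 and 0 for monocytes and 1 and 0 for platelets. MMP9, an enzyme stored in neutrophils, was the 1 listed gene above background with an unadjusted p under 0.05. On the arrays of the earlier scan alone, 0 of the listed genes above background had one. MMP9 ran from 11.72 to 13.76 in control and from 12.94 to 14.04 in EE-treated horses. Its difference was 0.59 (standard error 0.23, unadjusted p = 0.0200 and adjusted p = 0.339 in limma), with all 10 EE-treated horses above the control mean of 12.81, while LTF, another neutrophil gene, was at -0.27 (standard error 0.50, adjusted p = 0.826 in limma). MMP9, LTF, HEY1 and KIT were chosen for mention after their values were seen. The part of cell composition in the FCER2 difference was not tested.

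**Figure D4:**
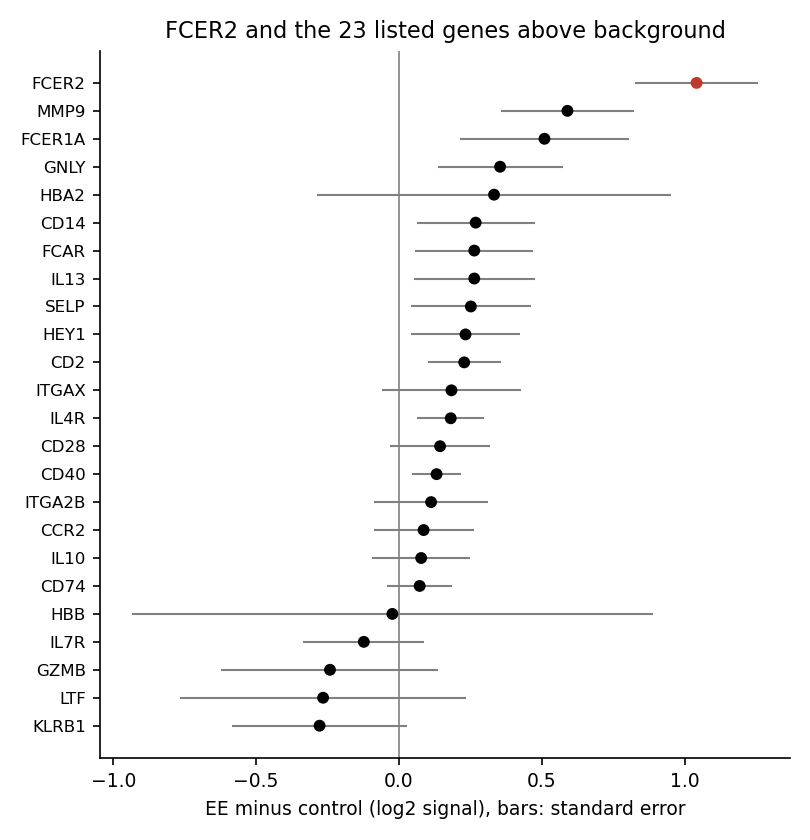
Difference between EE-treated and control horses (horizontal axis, log2 signal, EE minus control) for FCER2 in red and the 23 listed genes above background in black, with the standard error from limma as bars. FCER2 lies at 1.04, MMP9 at 0.59 and FCER1A at 0.51, and 5 genes lie below 0.

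Within each group, the FCER2 level was set against 8 named genes across horses (FCER1A, ITGAX, FCAR, IL4R, CD40, IL13, IL10 and CD74), of which only CD74 had been planned. None of the 16 relations, 8 genes in 2 groups, had a permutation p under 0.05. The smallest permutation p was that of CD74 across EE-treated horses, with Pearson's r = 0.54 (permutation p = 0.108, adjusted p = 0.766) and Spearman's rho = 0.56 (permutation p = 0.0965, adjusted p = 0.839). Without the 2 horses farthest from the median, r was 0.66. Across control horses, r for CD74 was 0.057 (exact permutation p = 0.889, adjusted p = 0.968) and rho was 0.17 (exact permutation p = 0.678, adjusted p = 0.904). For FCER1A, r was 0.33 across control horses (exact permutation p = 0.383, adjusted p = 0.766) and -0.39 across EE-treated horses (permutation p = 0.264, adjusted p = 0.766). Spearman's rho was 0.37 (exact permutation p = 0.336, adjusted p = 0.839) and -0.32 (permutation p = 0.366, adjusted p = 0.839). The difference between the groups in these correlations was not tested.

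The genes whose pattern over the 19 horses was most like that of FCER2 were ranked by the Pearson correlation after each group's mean was subtracted, so that the difference between the groups plays no part. The ranking is a description over 24442 probes that were above background on all arrays, with 461 named genes, and the values share array and scaling. The 8 named genes with the highest r were MED1 at 0.73, PITPNC1 at 0.72, LOC100033916 (known also as SCGB1A1) at 0.69, MIA at 0.66, TLR9 and IL7R at 0.65, PPP6R3 at 0.64 and S1PR1 at 0.64. MED1 encodes a subunit of the Mediator complex, TLR9 a sensor of unmethylated DNA, IL7R the receptor chain for interleukin 7, and S1PR1 a receptor that guides lymphocytes out of lymphoid organs.

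The likeness did not always hold over groups and probes. For MIA, r was 0.15 across control horses and 0.86 across EE-treated horses, while for MED1 it was 0.69 and 0.75. Other probes of PITPNC1 and PPP6R3 went down to -0.17 and -0.28, whereas both MED1 probes lay at or above 0.72. Of these 8 genes, the group difference was positive for PITPNC1, TLR9 and S1PR1 (0.14, 0.19 and 0.26) and negative for MED1, MIA, IL7R, LOC100033916 and PPP6R3 (-0.23, -0.35, -0.12, -0.21 and -0.0024). Over all genes and unnamed probes above background, 50.7% had the higher mean in EE-treated horses. Among the 24437 probes other than those of FCER2, the median r was -0.021. An r over 0.8, above that of every named gene, was seen for 18 of them, none of them named, with the highest at 0.86, and an r under -0.8 for 6.

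**Figure D5:**
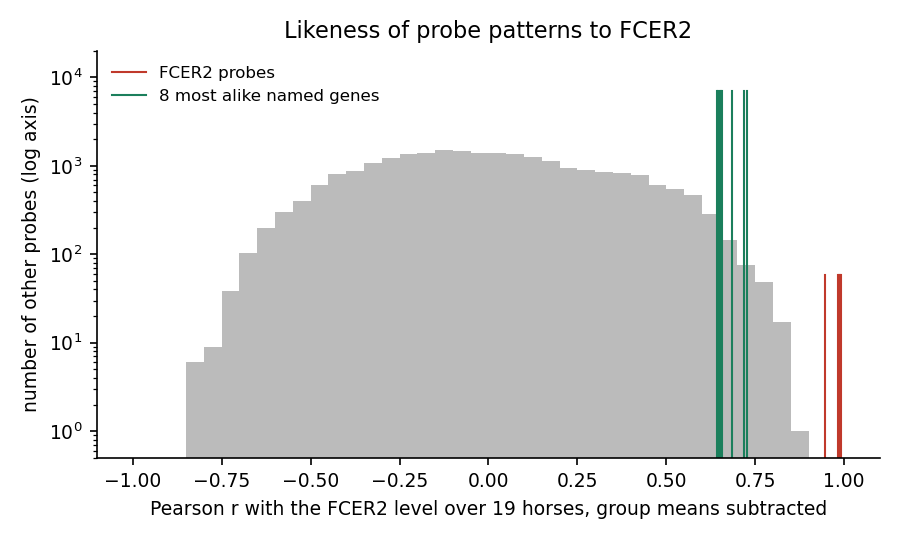
Number of probes (vertical axis, log scale) by their Pearson correlation with the FCER2 level over 19 horses after each group's mean was subtracted (horizontal axis). Red lines mark the 5 detected FCER2 probes, which make up the level, at 0.95 to 0.99, and green lines the 8 most alike named genes, at 0.64 to 0.73, inside the upper tail of the other 24437 probes in grey.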

How the data were processed

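RNA of whole blood was stabilised at collection, labelled with Cy3 and hybridised to 1 array per horse. The authors scanned the arrays and deposited the scanner output, with spot intensities corrected for background by Feature Extraction (10.7 per the file headers, 9.1 in the submitters' processing notes). They also deposited a table of log2 values, which equalled the scaled signal within 0.0005 for the 5 detected FCER2 probes. With the undetected probe A_69_P003146 included, the largest difference was 2.49. Here each array's processed signals were scaled to bring the 75th percentile of the 43803 non-control spots to 500 and taken to log2. Outlier spots, 2 to 56 on an array, were left out, and the spots of 1 probe were averaged. The level of a gene is the mean of its probes above background on all arrays of either group, or of all its probes where none is. The mean of all probes had been planned, and was replaced because 1 FCER2 probe was never above background.

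Groups and sex came from the labels, and 1 array per animal makes each n a number of horses. The lmFit and eBayes functions of limma 3.58.1 (R 4.3.3) were run, two-sided, over all 43384 probes, or over 42402 genes and unnamed probes, with adjusted p-values by the Benjamini-Hochberg method. The fit of the groups had no covariate, and that of sex had the treatment group. Permutation tests used numpy 2.4.6 in Python 3.11.15, with ranks from scipy 1.17.1. Those of the correlations were exact for 9 horses and had 100000 resamples for 10. That of sex was exact over 17640 relabellings within the groups. The fits across probes were also run on simulated data with independent noise and planted differences. That checks the code only, and does not cover probes that vary together. The number of arrays limits the precision.

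RefSeq accessions named 1781 of 3275 such probes, as 799 genes, through a RefSeq table of the TB-T2T assembly, used for names only. The gene, the 14 lists and the named genes were chosen with earlier results of these data known. Genes with values are those of the B cell, IgE, Fc receptor and type 2 lists, those of other lists with an unadjusted p under 0.005, and the 8 most like FCER2. No gene met that p, and MMP9, LTF, HEY1 and KIT are exceptions named after their values were seen. Alternatives were other scalings, background correction, filters, probes, covariates, a slide block, the methods' random-variance test and leaving out each horse. The normexp background correction was followed by quantile normalization. Sequences and genome positions are not used here.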

Additional observations from a re-analysis of the deposited data

Results flagged for a closer look

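In 38 groups of values tested for a single horse far from the rest, 3 had one, and chance gives about 1 in 20. For the excess of probe A_69_P001551 over the other 4 FCER2 probes, control horse647 lay at 1.10 with the next horse at 0.19, a gap of 0.878 of the whole range. For the same excess in EE-treated horses, horse642 lay at 0.22 with the next at 0.15, a gap of 0.470 of the range. For IL4R, EE-treated horse469 lay at 14.72 with the next at 14.27, a gap of 0.572 of the range.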

How the results depend on the processing

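The FCER2 difference between EE-treated and control horses kept its direction under all 15 alternatives. It ran from 0.87 with normexp background correction of the median signal to 1.10 with A_69_P001553 alone, and was 0.89 over all 6 probes. Because the gene was chosen on this contrast, that count is a description only. The 15 include each detected probe alone, and the outlier spots kept and the deposited values each gave 1.04. Using all 6 FCER2 probes, and all probes of a gene, had been the plan. The mean of the detected probes replaced it after the data were seen. Leaving out A_69_P001551 and the arrays of the earlier scan alone were alternatives chosen after seeing the data. So was leaving out 31 spots with a bright local background in the normexp correction. With each horse left out the difference ran from 0.94 to 1.14. Females minus males turned to 0.12 when the treatment group was left out of the fit, and ran from -0.28 (without EE-treated horse469) to -0.071 (without control horse645) with each horse left out. With the slide as a block it was -0.40. The interaction ran from -0.48 (without control horse645) to -0.027 (without control horse471). CD74 turned to -0.0068 with quantile normalization and to -0.028 with normexp, IL10 to -0.083 over all its probes and ITGAX to -0.064 on the earlier scan. Of the listed genes above background, 2 had an unadjusted p under 0.05 with sex as a covariate, 2 with normexp and 0 on the earlier scan. With each horse left out, 1 to 3 had one (3 without control horse472, 2 without control horse650, EE-treated horse648 or EE-treated horse469). FCER1A had an unadjusted p of 0.0253 in limma without control horse472 and of 0.0331 without EE-treated horse648. Its unadjusted p in limma was 0.206 without control horse647 and 0.257 on the earlier scan. Of these genes 18 to 20 were higher with each horse left out, and their median difference ran from 0.12 to 0.21. The threshold of the study was passed by 789 probes, by 508 with normexp, and by 501 (without control horse477) to 1039 (without control horse471) with each horse left out. Those higher in EE-treated horses numbered 510, with 361 under normexp and 745 with the slide as a block. With each horse left out they ran from 282 (without control horse477) to 669 (without control horse472). An adjusted p under 0.05 was reached by 0 probes, by 2 with the filter on dim probes, by 40 with normexp and by 0 to 3 with each horse left out. No paired analysis was possible because the groups consist of different animals. Normexp used the median signal and was followed by quantile normalization. Its offset of 50 shrinks differences of dim probes. The cause of none of these changes was tested.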
